A study of Bos taurus with 2 samples.

Results

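Myostatin and the transcription factors that build skeletal muscle were followed in the muzzle RNA of 2 HanWoo cows, the native cattle of Korea. The set held 9 genes: MSTN, MYOD1, MYF5, MYF6, MYOG, MEF2A, MEF2C, MEF2D and PAX7. They were chosen by gene symbol, from earlier dark over light ratios of these same arrays, so their values are given as a description with no test. Probes were matched to 7 of the 9 genes, 19 probes in all, out of 43639 probes on the array and 9647 genes with a RefSeq symbol. MEF2D and PAX7 were not analysed here.

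The study asked which genes differ between muzzles with and without dark pigment. One array carried nose RNA of a cow with a yellow, here light, muzzle and the other nose RNA of a cow with a black, here dark, muzzle. Both animals were females of the Hanwoo strain at 30 months, and the paper classed the dark muzzles it used as medium. Each colour was therefore 1 cow and 1 array, and no replicate, test or SD between cows exists for any value below. The RNA came from whole tissue, in which more cells of a type and more RNA per cell cannot be told apart.

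Skeletal muscle is built by a small family of DNA-binding factors that act in sequence. MYF5 and MYOD1 commit precursor cells to the muscle fate, MYOG drives their differentiation, and MYF6, also called MRF4, is the member most abundant in grown fibres. MEF2 proteins bind beside them on muscle genes and also work in heart, vessel, nerve and immune cells. Myostatin, a secreted protein of the TGF-beta family made mostly by muscle fibres, restrains muscle growth, and cattle that lack it are heavily muscled. Striated facial muscle runs under the skin of the muzzle.

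Each array held 43803 noncontrol spots, of which 34519 (78.8%) in the light muzzle and 35855 (81.9%) in the dark muzzle were well above background, and none was saturated. Each probe's level is its log2 signal minus the 75th percentile of its array, and a ratio is the log2 difference of dark over light. A probe well above background on 1 array only was given a lower bound in place of a ratio. Such bounds pointed higher in the dark muzzle for 2258 probes and lower for 921. The 43 probes printed in 4 spots had a median SD of 0.049 in their ratio between spots. Different probes of 1 transcript had a median SD of 0.18 in their ratio over 7661 transcripts. The error estimate of the scanner software had a median of 0.21 per ratio. These errors hold for the measurement and not for the spread between cows. Of 10 spiked transcripts, the 8 above background on both arrays had ratios from -0.38 to 0.0063, with a median of -0.22. Spike E1A_r60_a104 was well above background on the dark-muzzle array only, in a share of 0.94 of its 32 spots. Its plain log2 difference was 1.93. Spike E1A_r60_3, with a difference of 0.80, was above background in a share of 0.031 of its dark-muzzle spots.

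In the dark muzzle 5 of the 7 genes were higher by 2-fold or more, namely MSTN, MYF6, MYOG, MEF2C and, as a lower bound, MYF5. MYOD1 and MEF2A stayed within 2-fold. By probe, 12 of 19 (63.2%) were at least 2-fold higher and 0 were at least 2-fold lower, and the other 7 lay within 2-fold or had a bound under it. The 12 include MYF5 probe A_73_P100576, at 1.06 in log2 with a software error of 0.40. Over all 36630 probes with a ratio, 9.76% were at least 2-fold higher and 7.17% at least 2-fold lower. The 15 member probes measured on both arrays had a median log2 ratio of 2.29, against 0.0038 over all 33451 such probes. Because these genes were picked with the ratios known, nothing is read from that gap.

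**Figure D1:**
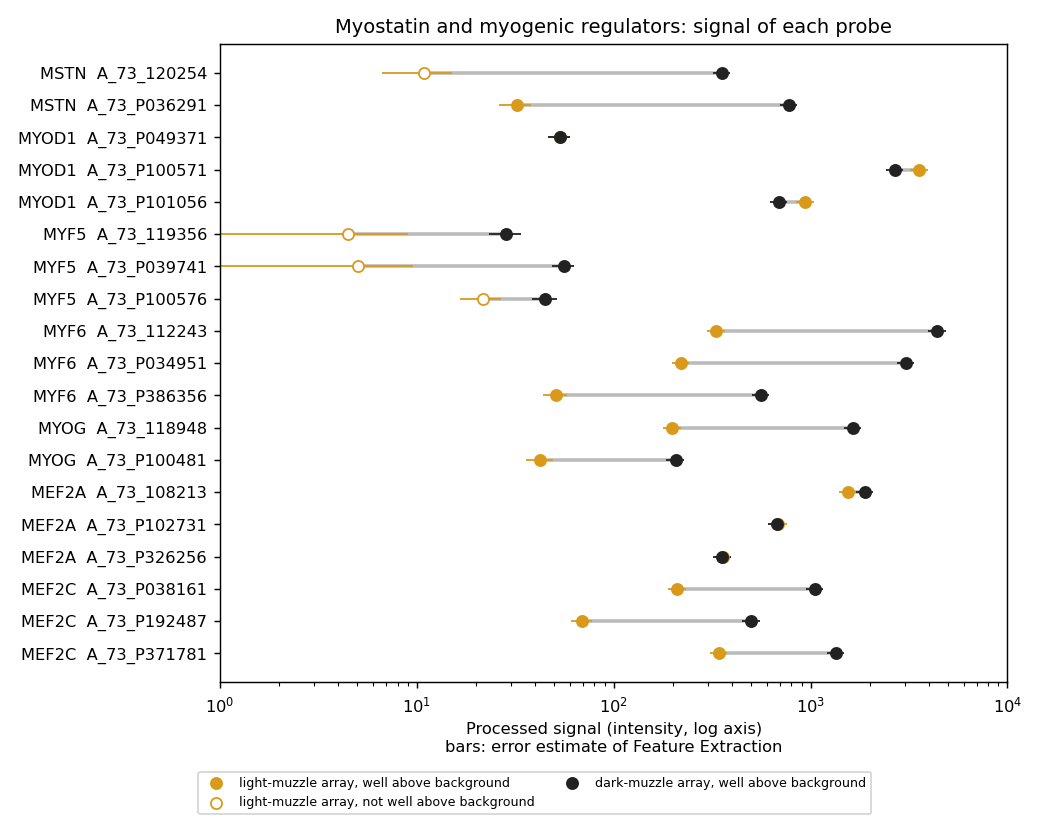
Processed signal (intensity, log axis) of each of the 19 member probes on the light-muzzle array (yellow) and the dark-muzzle array (black), with the error estimate of the scanner software as bars. Open circles mark signals not well above background, which occur only on the light-muzzle array, for 1 MSTN probe and the 3 MYF5 probes. The bars of the MYF5 signals of 4.51 and 5.04 run past the left edge.

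MSTN had the highest ratio of the set. Its probe A_73_P036291 read an intensity of 32.2 in the light muzzle and 777 in the dark muzzle. The dark-muzzle signal was 24.3-fold higher, a log2 ratio of 4.60 with a software error of 0.31. In this ratio 9 of 33451 measured probes were higher, and nothing is read from that rank because the set was chosen from such ratios.

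The second MSTN probe, A_73_120254, read 10.9 in the light muzzle, which was not well above background, and 354 in the dark muzzle. Its ratio was at least 17.1-fold, a log2 bound of 4.09. Both probes thus put myostatin RNA close to the detection limit in the light muzzle, where the lowest intensity well above background was 20.8, and far above it in the dark muzzle. The size of the fold rests on that dim light-muzzle signal. Normexp background correction starts from the median spot signal, estimates the background in another way and adds a constant of 50. With it the ratio of A_73_P036291 became 3.06, or 8.32-fold. The log2 bound of A_73_120254 became 2.66, so the bound of 4.09 holds for the first processing only.

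The 2 myogenic factors that commit precursors gave different readings. MYF5 was well above background in the dark muzzle only. Its probe A_73_P039741 read 5.04 in the light muzzle and 56.0 in the dark muzzle, which gave a ratio of at least 2.70-fold. Probe A_73_P100576 read 21.8 and 45.0. Its light-muzzle signal lay above the lowest intensity called well above background, 20.8, without itself being called so. Its bound of 2.08-fold is therefore a plain ratio, 1.06 in log2 with a software error of 0.40, and not a firm lower limit. Probe A_73_119356 read 4.51 and 28.5, at least 1.37-fold.

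None of the 3 light-muzzle MYF5 signals was well above background and each of the 3 dark-muzzle signals was. Spike E1A_r60_a104, a control, also passed background on the dark-muzzle array only, with a log2 difference of 1.93. The dark-muzzle signals of MYF5 were themselves dim, so its bounds sit close to the 2-fold line. With normexp correction the MYF5 bounds were 0.71, 0.45 and 0.31 in log2, and none reached 2-fold.

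MYOD1 was well above background in both cows and was no higher in the dark muzzle. Probe A_73_P100571 read 3572 in the light muzzle and 2669 in the dark muzzle, 1.33-fold lower, with a log2 ratio of -0.41 and a software error of 0.20. Probe A_73_P101056 read 941 and 693, 1.35-fold lower, with a ratio of -0.43 and an error of 0.20. Probe A_73_P049371 read 53.4 and 53.2, a log2 ratio of 0.0022 with an error of 0.26.

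The first pair of MYOD1 ratios lay 2.02 and 2.12 software errors below 0, and the third lay on 0. Spiked transcripts above background on both arrays had a median of -0.22 and reached -0.38 under the same scaling. The distance from 0 therefore does not by itself show a decrease. Averaged over its 3 probes MYOD1 was 1.21-fold lower in the dark muzzle, a log2 ratio of -0.28 with an SD of 0.25 between probes. MYOD1 was thus near level in the 2 cows while the other myogenic factors with a measured ratio, MYOG and MYF6, were high in one of them.

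MYOG, the factor of differentiating muscle cells, was higher in the dark muzzle by both of its probes. Probe A_73_118948 read 199 in the light muzzle and 1642 in the dark muzzle, 8.31-fold higher, and probe A_73_P100481 read 42.5 and 207, 4.89-fold higher. Their log2 ratios of 3.05 and 2.29 had software errors of 0.21 and 0.27. The mean was 2.67, or 6.38-fold, and the probes lay 0.76 apart. With normexp correction the MYOG mean was 1.97, or 3.93-fold.

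MYF6, the factor of grown fibres, had the highest ratio of the 3 myogenic factors measured on both arrays. MYF5, with bounds only, could not be ranked. Probe A_73_112243 read 332 in the light muzzle and 4405 in the dark muzzle, 13.3-fold higher. Probe A_73_P034951 read 220 and 3044, 13.9-fold higher. Probe A_73_P386356 read 51.0 and 559, 11.0-fold higher.

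The 3 MYF6 ratios were close to each other. Their log2 values of 3.74, 3.80 and 3.46 averaged 3.67 (12.7-fold) with an SD of 0.18 between probes, close to the median SD between probes of a transcript on this array. With normexp correction the MYF6 mean was 3.08, or 8.46-fold.

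**Figure D2:**
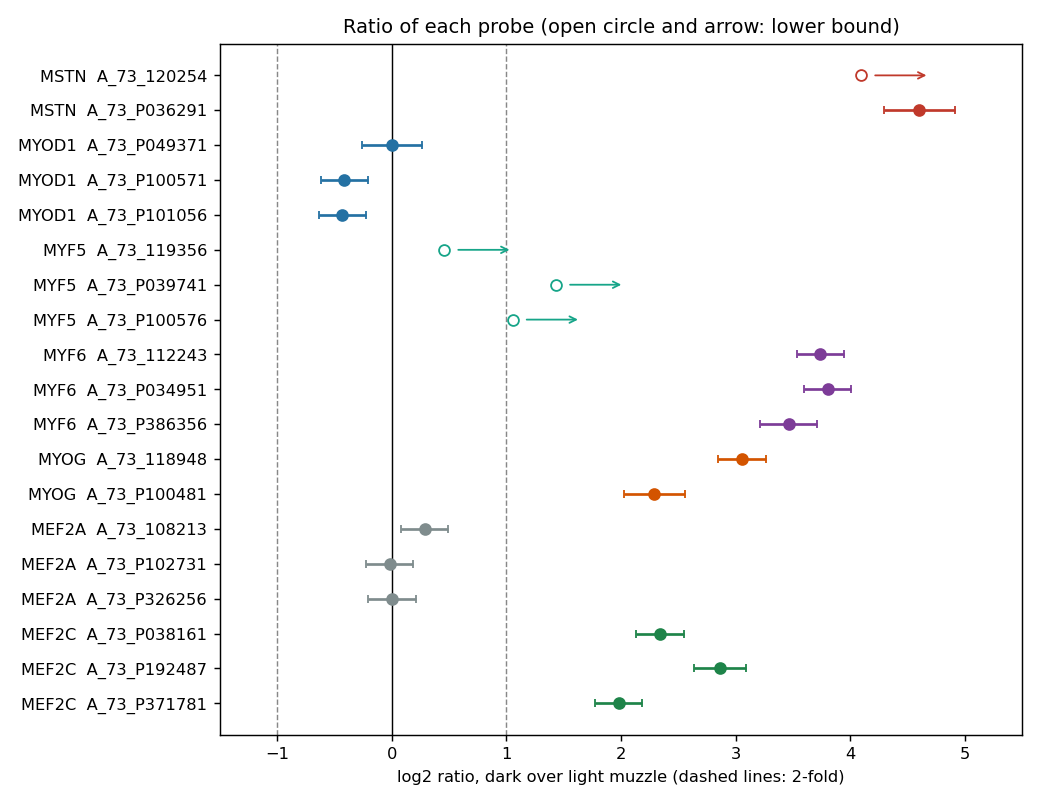
Log2 ratio of dark over light muzzle for each member probe, with the error estimate of the scanner software as bars for the 15 probes measured on both arrays. Open circles with arrows are lower bounds, except that the value of MYF5 probe A_73_P100576 is a plain ratio. The MSTN, MYF6, MYOG and MEF2C probes lie right of the 2-fold line, and the MYOD1 and MEF2A probes lie between the 2-fold lines.

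The MEF2 genes were split. MEF2C, which works with the myogenic factors and is also made in vessel, heart and B cells, was higher in the dark muzzle by all 3 probes. Probe A_73_P038161 read 210 in the light muzzle and 1057 in the dark muzzle, 5.06-fold higher. Probe A_73_P192487 read 69.3 and 501, 7.28-fold higher, and probe A_73_P371781 read 342 and 1341, 3.94-fold higher. The mean log2 ratio of MEF2C was 2.39 (5.25-fold), with an SD of 0.45 between its probes. With normexp correction the MEF2C mean was 1.95, or 3.86-fold.

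MEF2A, a family member that most tissues make, was level. Probe A_73_108213 read 1555 in the light muzzle and 1889 in the dark muzzle, a log2 ratio of 0.29 with a software error of 0.20. Probe A_73_P102731 read 686 and 674, a ratio of -0.018, and probe A_73_P326256 read 359 and 357, a ratio of 0.0023. The mean was 0.091 (1.07-fold) with an SD of 0.17 between probes, no larger than the errors of the single ratios. All 3 MEF2C ratios lay above all 3 MEF2A ratios.

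**Figure D3:**
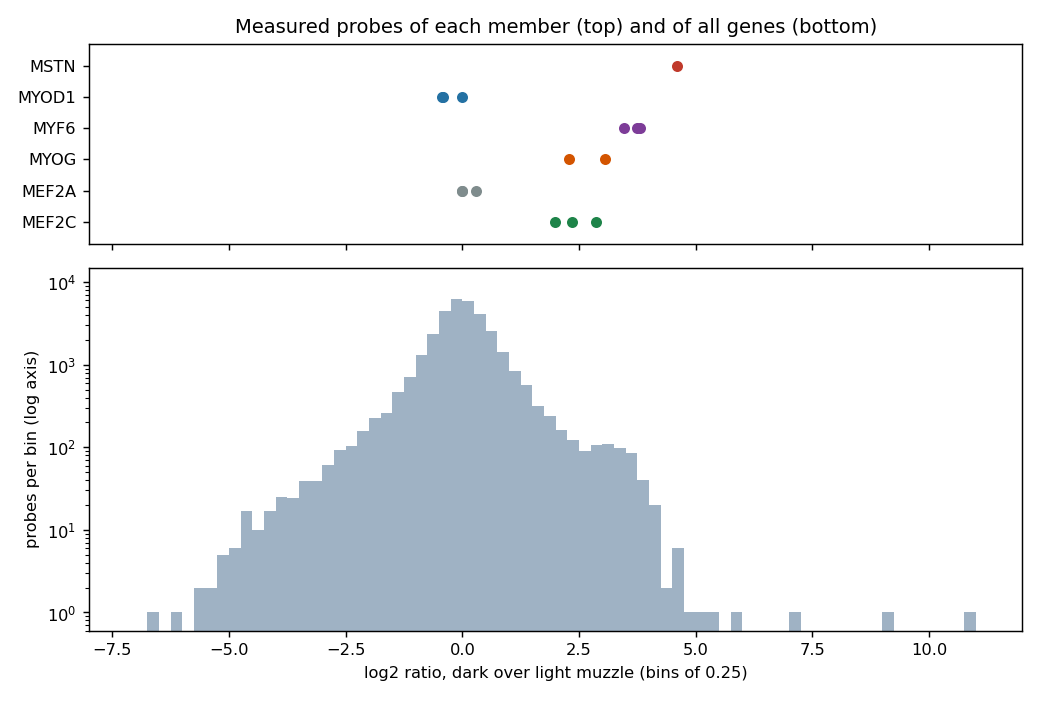
Top: log2 ratio of dark over light muzzle for the measured probes of 6 members, 1 row per gene (MYF5 had bounds only). Bottom: number of probes (log axis) in bins of the same ratio over all 33451 measured probes. MSTN at 4.60 lies near the right end of the distribution, and MYOD1 and MEF2A lie at its centre.

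Spots near the member probes on the array did not share their ratios. The 1097 other noncontrol spots within 4 rows and columns of a member probe had a median log2 ratio of -0.012, and around single member probes the median ran from -0.17 to 0.18 over 31 to 65 spots.

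Muscle fibre markers were higher in the dark muzzle along with these regulators. Of 53 listed genes of the contractile apparatus, the fibre metabolism and the nerve-muscle junction, 42 had a ratio. Of those, 38 were at least 2-fold higher, 2 were at least 2-fold lower, and the median log2 ratio was 3.04. Over all 8914 genes with a ratio, 9.86% were at least 2-fold higher, 6.47% were at least 2-fold lower, and the median was 0.065. The summed intensity of the fibre list was 402726 in the light muzzle and 2617999 in the dark muzzle, 6.50-fold higher. MB, the oxygen store myoglobin, had levels of 5.54 and 8.10, a ratio of 2.56. TNNC2, the calcium sensor of fast fibres, had a ratio of 3.01, and MYL1, a fast myosin light chain, had levels of 4.98 and 7.88, a ratio of 2.90. Fibre RNA was thus plentiful in both cows. CA3, a carbonic anhydrase of slow fibres, went most against the list, with a ratio of -1.32, and PVALB, the calcium buffer parvalbumin of fast fibres, had a ratio of -1.15. With normexp correction CA3 and PVALB had ratios of -0.68 and -0.81, and 0 fibre genes were 2-fold lower.

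Set against the 42 fibre genes, the members fell at very different places. None of the fibre genes had a higher ratio than MSTN, and the highest, MYOZ1 of the Z-disc, had 3.72. MYF6 was exceeded by 2 of the 42, MYOG by 29, MEF2C by 33 and MYF5 by 35, the last from its bound. MYOD1 and MEF2A were each exceeded by 40, so that only CA3 and PVALB lay below them. MSTN and MYF6 ratios were thus at the top of the fibre range, those of MYOG and MEF2C in its lower part, and those of MYOD1 and MEF2A under nearly all of it. With normexp correction, 19 of the 42 exceeded MSTN and 17 exceeded MYF6, so the place of these 2 genes at the top depends on the background correction. The place of MYOG depends on the probe. With the brightest probe of each gene MYOG had 3.05, exceeded by 19 of the 42, against a fibre median of 3.01. The part of the amount of muscle in each sample in these ratios was not tested.

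The myostatin pathway was nearer to level than its ligand. Of 14 listed ligands, antagonists and processing genes, 7 had a ratio, with 1 at least 2-fold higher, 0 lower and a median of -0.026. The 1 was INHA, the inhibin alpha chain, with levels of -2.80 in the light muzzle and 0.27 in the dark muzzle, 8.42-fold higher on average, though its 2 probes gave log2 ratios of 2.07 and 4.08. FST, the follistatin that binds and blocks myostatin, read 805 and 667, a log2 ratio of -0.26. WFIKKN2, another myostatin binder, had a ratio of 0.30, and the matrix protein decorin (DCN), which also binds it, had -0.33. INHBA, the activin A chain, was lowest at -0.92, though its 2 probes gave -1.51 and -0.32.

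Of 13 listed receptors and SMAD genes, 5 had a ratio and 0 reached 2-fold in either direction. ACVR2B, the main receptor of myostatin, read 363 in both muzzles, a log2 ratio of 0.0082. SMAD4, the shared partner of activated SMADs, had a ratio of 0.036, ACVR2A had -0.26 and TGFBR1, a type I receptor, had -0.33. RNA for the myostatin receptors measured was thus close to level in the 2 cows.

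Partners and inhibitors of the myogenic factors were mostly level. Of 19 listed genes 13 had a ratio, with 0 at least 2-fold higher, 2 at least 2-fold lower and a median of 0.10. ID2, which sequesters the E proteins that the myogenic factors pair with, had the lowest ratio. It read 3972 in the light muzzle and 986 in the dark muzzle, 4.12-fold lower, with probe ratios of -2.33 and -1.76. TWIST2, a repressor of mesenchymal differentiation that also binds E proteins, read 386 and 176, 2.18-fold lower, but with normexp correction its log2 ratio was -0.91 and ID2 alone stayed past 2-fold. The other inhibitors of that family were closer to level, with ID1 at -0.062 and ID3 at -0.39. Highest were the Notch targets HEY1 and HEYL at 0.43 and 0.31, and the E proteins TCF4 and TCF12 lay at 0.21 and 0.092.

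Of 22 listed partners of MEF2 and class IIa histone deacetylases, which hold MEF2 in check, 9 had a ratio, with 2 at least 2-fold higher, 0 lower and a median of 0.21. SMARCD3, the chromatin remodelling subunit BAF60c of muscle and heart, read 366 in the light muzzle and 1451 in the dark muzzle, 4.09-fold higher, and its 2 probes agreed at 1.99 and 2.08. VGLL2, a muscle cofactor of TEAD factors, read 9.02, not well above background, and 64.4, at least 3.11-fold higher. With normexp correction the VGLL2 bound was 0.84, so that 1 gene, SMARCD3, stayed past 2-fold. HDAC5 had a ratio of 0.21, the kinase MAPK14 -0.0066 and MEF2B, the remaining MEF2 gene with a probe, -0.38.

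Regulators that act upstream in head and trunk muscle went both ways. Of 20 listed, 6 had a ratio, with a median of 0.51. ISL1, a factor of branchial muscle precursors, read 317 in the light muzzle and 606 in the dark muzzle, a log2 ratio of 0.94. EYA2, a transcriptional cofactor of muscle precursors, read 3760 and 1088, 3.44-fold lower. MEOX1 was level at 0.00092. Each of these 3 genes had 1 probe.

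Genes of satellite cells, the stem cells of muscle, and of cell fusion were followed because PAX7, the defining factor of satellite cells, had no value. Of 23 listed, 14 had a ratio, with 5 at least 2-fold higher, 0 lower and a median of 0.81. CDH15, the M-cadherin of myoblasts and satellite cells, read 886 in the light muzzle and 3568 in the dark muzzle as the mean intensity of its 2 probes. The probe ratios were 1.91 and 3.45, with a mean of 2.68, or 6.41-fold. CALCR, a receptor of resting satellite cells, was at least 3.82-fold higher. That bound rests on a single probe of 2, with levels of -7.74 in the light muzzle, not well above background, and -3.84 in the dark muzzle. CHRDL2, a BMP antagonist, was 6.18-fold higher, DYSF, the membrane repair protein dysferlin of fibres, 2.76-fold, and the chemokine receptor CXCR4 2.22-fold. With normexp correction 3 of these 5 genes stayed past 2-fold, while CALCR had a bound of 0.82 and CXCR4 a ratio of 0.92. SPRY1 and MET, which quiescent satellite cells also use, had ratios of -0.30 and -0.37.

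Genes that mark developing or regenerating muscle were partly higher in the dark muzzle. Of 12 listed, 9 had a ratio, with 4 at least 2-fold higher, 0 lower and a median of 0.81. MYBPH, a myosin binding protein, read 92.4 in the light muzzle and 1528 in the dark muzzle, 16.6-fold higher. ACTC1, the actin of heart and fetal muscle, was 7.18-fold higher and MYL4, a fetal myosin light chain, 2.33-fold. MYH3, the embryonic myosin heavy chain, was 4.81-fold higher on average, but its 2 probes gave 0.65 and 3.88 in log2. With normexp correction MYL4 had 0.95 and 3 genes were past 2-fold. CHRNG, the fetal subunit of the acetylcholine receptor, and TNNT2 were lowest, at 0.42 and 0.32.

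**Figure D4:**
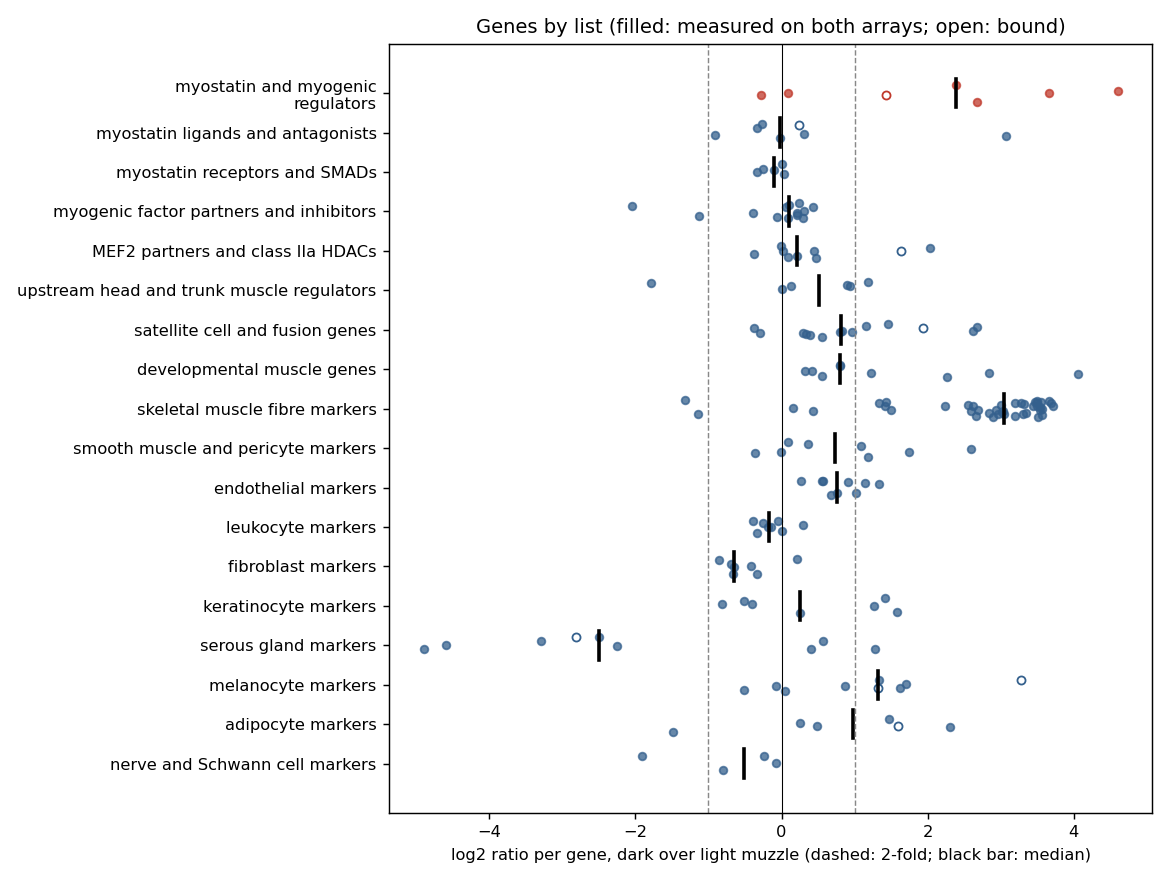
Log2 ratio of dark over light muzzle per gene for the 7 members with probes and for 17 gene lists. Each circle is a gene (open where only a bound exists, vertical scatter only separates points) and each black bar a median, which was 2.39 for the members and 3.04 for the fibre markers.

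MEF2C is also made by vessel and blood cells, so markers of these cells were set beside it. Of 9 smooth muscle and pericyte genes 8 had a ratio, with 4 at least 2-fold higher, a median of 0.73 and a summed intensity 2.01-fold higher in the dark muzzle. Their brightest members were ACTA2 with a ratio of 0.086, DES with 2.60, which striated fibres also make and the fibre list holds too, and TAGLN with 0.36. CNN1 was lowest at -0.36. Of 10 endothelial genes 9 had a ratio, with 3 at least 2-fold higher, a median of 0.75 and a summed intensity 2.14-fold higher, and CLDN5 (1.33), EMCN (0.75), PECAM1 (1.14) and KDR (0.26) were all above 0. Of 11 leukocyte genes 8 had a ratio, with 0 past 2-fold, a median of -0.17 and a summed intensity 0.852 times that of the light muzzle. CD3D, CD79A and CSF1R had ratios of -0.19, -0.39 and -0.25, and CD3E had 0.29. The highest ratios in the smooth muscle and pericyte list were DES at 2.60 and RGS5 at 1.74. The highest was CLDN5 at 1.33 in the endothelial list and CD3E at 0.29 in the leukocyte list, and MEF2C had 2.39. The part of these cells in the MEF2C ratio was not tested.

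Marker RNA of some other tissue parts differed between the samples as well. Serous gland markers had a median ratio of -2.50 over 9 genes, with 6 at least 2-fold lower and 1 higher, and their summed intensity was 0.0806 times that of the light muzzle. Melanocyte markers had a median of 1.31 (5 of 9 at least 2-fold higher, 0 lower), adipocyte markers 0.98 (3 of 6 higher, 1 lower), keratinocyte markers 0.25 (3 of 7 higher, 0 lower), nerve and Schwann cell markers -0.52 (0 of 4 higher, 1 lower) and fibroblast markers -0.65 (0 of 7 past 2-fold). With normexp correction the melanocyte markers higher by 2-fold fell to 3, the adipocyte markers lower to 0 and the serous gland markers higher to 0. The part of tissue makeup in the ratios of the members was not tested.

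Genes beside the members on the chromosomes were more often higher than lower in the dark muzzle. In the gene order of the bovine assembly ARS-UCD2.0, which was used for order only, 19 of the genes within 3 places of a member had a ratio, with 4 at least 2-fold higher, 1 at least 2-fold lower and a median of 0.41. The median over all genes was 0.065, with 9.86% at least 2-fold higher. MYF5 and MYF6 are adjacent on chromosome 5, and beyond MYF5 lie LIN7A at 1.53 and ACSS3 at 0.65. Near MSTN on chromosome 2, C2H2orf88 had a ratio of 2.19, PMS1 0.80 and ORMDL1 0.11. Near MYOG on chromosome 16, MYBPH had 4.06 while ADORA1, which lies between them, was level at -5.27e-05. The MYOD1 neighbours KCNC1 and SERGEF on chromosome 15 had 0.37 and 0.44, and USH1C had a bound of -1.93. Near MEF2A on chromosome 21, TTC23 had 1.06, CERS3 0.93, LRRC28 0.54 and LYSMD4 -0.68. The 3 measured neighbours of MEF2C on chromosome 7 lay between -0.0086 and 0.24.

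The 5 genes whose pair of levels lay nearest to that of MSTN probe A_73_P036291 (-5.15 in the light and -0.55 in the dark muzzle), by Euclidean distance over the 2 arrays, were CAPN3 (distance 0.36), FAR2 (0.53), MYH3 (0.61), ATP1B4 (0.65) and ACTN2 (0.66). CAPN3, a protease of muscle fibres, had a ratio of 4.52 on the matching probe, FAR2 4.07, ATP1B4 3.70 and ACTN2, the alpha-actinin of Z-discs, 3.99. Likeness over 2 arrays describes these samples only.

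**Figure D5:**
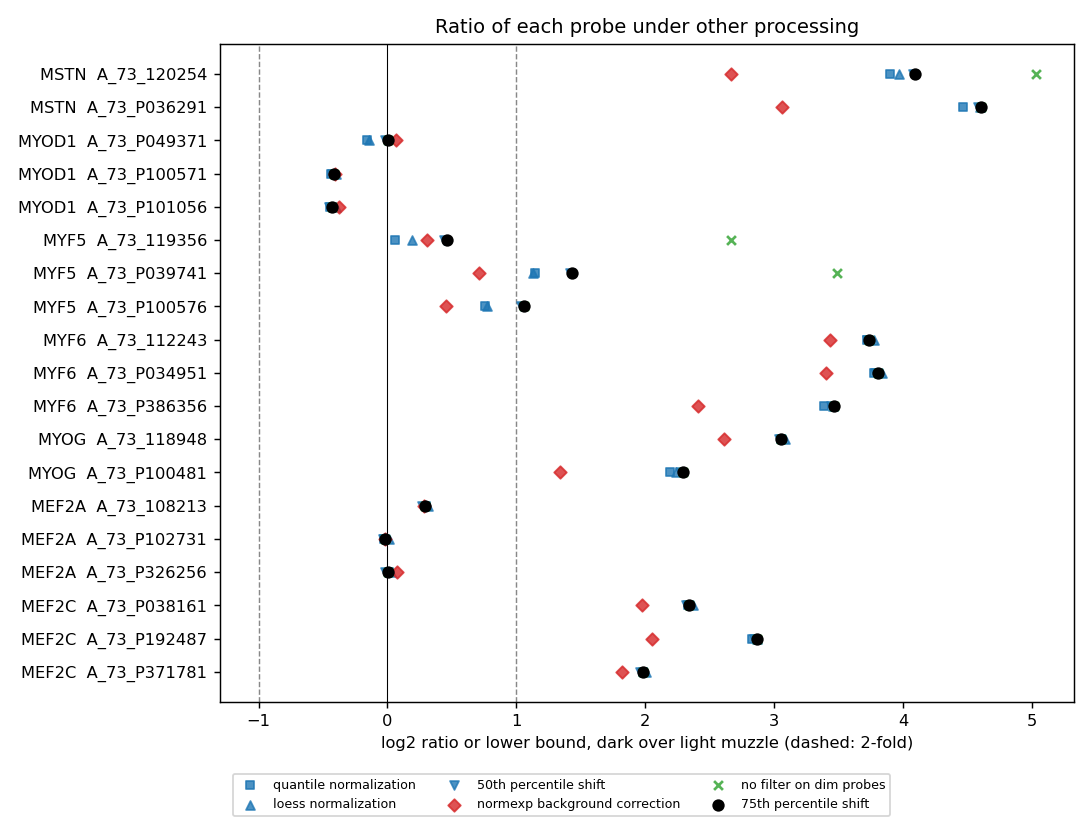
Log2 ratio or lower bound of each member probe under the 75th percentile shift (black) and 5 other ways of processing, with dashed lines at 2-fold. Normexp correction (red) pulls the MSTN, MYF5, MYOG, MYF6 and MEF2C probes toward 0 and leaves MYOD1 and MEF2A between the 2-fold lines.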

How the data were processed

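Total nose RNA of 1 light-muzzle and 1 dark-muzzle cow was hybridised to 1-colour Agilent bovine arrays on 1 slide. The authors deposited Feature Extraction 10.7.3.1 output, in which the processed signal is a background-subtracted, detrended intensity. They also deposited a log2 value per probe, and this table, used as an alternative, matched the levels computed here within 0.01 for 43625 of 43639 probes. From the intensities, log2 levels were shifted by the 75th percentile of noncontrol spots. Control and outlier spots were left out. A bound is the bright level minus the probe's own dim level or, where that is higher, the dimmest level that array still called well above background. Where the probe's own level was used, the bound is a plain ratio and not a firm limit. The level of a gene is the mean of its measured probes, otherwise its largest bound. An intensity given for a listed gene is the mean over all its probes. With several probes it need not yield the fold, which comes from the mean log2 ratio.

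Probes were named by accession through RefSeq (ARS-UCD2.0), which gave a symbol to 20587 of 43639. No coordinates or sequences were used. The members and the 17 gene lists were chosen with earlier results of these data known. Named were all members, from each pathway list the 2 highest and 2 lowest ratios and up to 6 genes past 2-fold, and from the muscle, vessel and leukocyte lists the 3 brightest genes and the one most against the median. FST, ID1, ID3, TCF4, TCF12, HDAC5, MYOZ1, PVALB, RGS5 and the chromosomal neighbours fall outside this rule and were chosen after their values were seen. Other cell type lists are given by counts. One gene that this rule names is not reported here. With 1 array per group no test was run, and precision is limited by having 1 array each.

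Alternatives were quantile and loess normalization, a 50th percentile shift, no shift, normexp (offset 50, on the median spot signal, since the mean was not used here), no filter on dim probes, a filter that asks for both arrays above background, keeping outlier spots, the deposited log2 table, thresholds of 1.5-fold and 3-fold, and the brightest probe of a gene. Normalizations used limma 3.58.1 in R 4.3.3, and all other steps pandas 2.3.3 and numpy 2.4.6 under Python 3.11.15. The 2-fold calls of probes measured on both arrays were checked on simulated data. The bounds were not checked in this way.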

Additional observations from a re-analysis of the deposited data

How the results depend on the processing

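No member probe was at least 2-fold lower under any of the 12 alternatives, and the number at least 2-fold higher ran from 9 (only probes above background on both arrays) to 13 (no filter on dim probes), against 12. MSTN, MYF6, MYOG and MEF2C probes stayed at least 2-fold higher in all of them that gave a ratio. Single MYOD1 and MEF2A probes near 0 changed sign. With normexp the member median was 1.82, the counts over all probes were 2132 higher and 1563 lower, and the medians were -2.10 for serous gland, 0.83 for melanocyte and 0.47 for adipocyte markers. With no filter, 6018 of all probes were higher, and the medians were 0.45 for MEF2 partners, 0.13 for head and trunk regulators, 1.06 for satellite cell and fusion genes, 0.073 for leukocyte markers, which changed sign, and -0.23 for nerve markers. With only probes above background on both arrays, melanocyte and adipocyte markers had medians of 0.86 and 0.48. The melanocyte median was 1.02 under quantile and 1.05 under loess normalization. At 1.5-fold, 7226 probes were higher and 5542 lower, and at 3-fold 1620 and 1169. The brightest probe of each gene gave medians of 0.53 for MEF2 partners and -0.85 for fibroblast markers. With only probes above background on both arrays, 1 MEF2 partner and 3 melanocyte markers were at least 2-fold higher, against 2 and 5, and with no filter 0 adipocyte markers were lower, against 1. Normexp changed the starting signal, the background estimate and the offset together, and the cause of each change was not tested. Signal over background limits MSTN and MYF5 most. No paired analysis was possible because each group holds 1 array.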
